A study of Mus musculus with 40 samples.

Results

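A2-type astrocyte genes are 8 mouse genes, S100a10, Cd109, Emp1, B3gnt5, Clcf1, Sphk1, Cd14 and Tm4sf1, that mark an astrocyte state first described after ischaemic injury. They were taken by gene symbol from the 55539 features of the deposited count matrix and each symbol matched 1 row. All 8 were detected in every sample used. B3gnt5 fell below the filter on low counts, so 7 of 8 were among the 15224 features tested.

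The samples were bulk RNA of somatomotor cortex, left side, from female mice of the 3xTg-AD line, a model of Alzheimer's disease on a C57BL/6J background that carries mutant human APP and MAPT under the Thy1 promoter, which acts in neurons. Animals aged 2 to 4 months received a daily closed head injury (CHI) by weight drop on the intact skull, from 1 to 5 times, and sham animals had the anaesthesia without the injury, with animals of different numbers of exposures in 1 group. All groups, Sham included, carry the transgenes, so the comparisons hold no animal without them. The groups were Sham (n = 4), 1xCHI at 30 min (n = 3), 4 h (n = 3) and 24 h (n = 4), 2xCHI at 24 h (n = 3), 3xCHI at 30 min (n = 3), 4 h (n = 2) and 24 h (n = 4), 4xCHI at 24 h (n = 3), and 5xCHI at 30 min (n = 3), 4 h (n = 3) and 24 h (n = 4). Sample 30 (3xCHI, 4 h) was left out here, an exclusion taken over from the original work, and 39 of 40 samples remain. Summed counts were 15926014 to 27859547 per sample (median 19028778), and levels are given as CPM, counts per 1000000 of a sample's sum. In bulk tissue, more cells of a type and more RNA per cell cannot be told apart.

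Astrocytes respond to injury by changing their gene expression, and lists of reactive genes have been grouped as pan-reactive, A1 (raised by inflammatory stimuli) and A2 (raised by ischaemia). The A2 genes do not form 1 pathway. They encode a cytokine (Clcf1), cell surface proteins that bind signals or co-receptors (Cd14, Cd109), small membrane proteins (Emp1, Tm4sf1), a calcium-binding protein family member that partners with annexin A2 (S100a10) and 2 enzymes of sphingolipid metabolism (Sphk1, B3gnt5). None is expressed by astrocytes alone. Cd14 is a myeloid gene and Tm4sf1 an endothelial one, so each gene is described by itself.

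In GRCm38 with GENCODE M21 annotation, S100a10 lies at chr3:93555080-93564643 on the plus strand, Cd109 at chr9:78615546-78716253 (plus), Emp1 at chr6:135362545-135383173 (plus) and B3gnt5 at chr16:19760208-19772753 (plus). Clcf1 lies at chr19:4214238-4223490 (plus), Sphk1 at chr11:116530925-116536674 (plus), and Tm4sf1 at chr3:57285611-57301988 (minus). Annotated genes overlap Cd109 (4921509A06Rik), Clcf1 (AC109138.7, Gm26115) and Sphk1 (Gm29292), and the highest count of any of these in a sample was 4. RefSeq promoter windows of GRCm38.p6, 250 bases before and 50 after a start, were at hand for 4 of the 8 genes. The sequences before a RefSeq start of Emp1 and of Tm4sf1, both membrane protein genes, are shown because they differ in motifs of factors activated by injury. The Emp1 stretch precedes that start but lies within the gene as GENCODE draws it, outside its exons. TGANTCA, bound by AP-1, and TTCNNNGAA, bound by STAT factors, were searched (both read the same on either strand), and they are in 7.81% and 8.3% of all 32851 windows, with both together in 0.718%. The Emp1 stretch is chr6:135362708-135362903 (plus strand) and the Tm4sf1 stretch chr3:57301989-57302238 (minus strand). Capitals mark the matches, and 2 further matches of the Emp1 window lie in an annotated exon and are not printed.
Emp1: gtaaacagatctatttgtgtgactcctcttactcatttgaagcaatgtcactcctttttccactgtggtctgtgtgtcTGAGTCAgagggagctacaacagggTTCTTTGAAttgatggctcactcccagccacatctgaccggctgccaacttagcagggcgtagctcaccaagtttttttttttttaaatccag
Tm4sf1: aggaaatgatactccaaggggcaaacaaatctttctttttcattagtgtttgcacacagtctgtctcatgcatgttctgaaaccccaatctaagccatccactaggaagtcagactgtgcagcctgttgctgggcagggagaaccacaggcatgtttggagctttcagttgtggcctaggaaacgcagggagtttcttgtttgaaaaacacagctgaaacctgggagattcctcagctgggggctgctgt
The first Emp1 window held both motifs, while the second Emp1 window and the Tm4sf1 window held neither. In Sphk1, 2 overlapping windows of 5 held both motifs, and B3gnt5 held neither. A match is a run of letters and was not tested as a binding site.

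Levels between genes were compared per length, as median CPM per kb of exon. S100a10 was highest at 14.0, followed by Cd14 at 2.39 and Tm4sf1 at 2.25. Sphk1 (0.930), Clcf1 (0.470), Emp1 (0.434), Cd109 (0.198) and B3gnt5 (0.144) lay below. The highest sample was 77.3 times the lowest for Emp1 (16.2 times the second lowest, since the lowest, sample 25, holds 5 counts), 29.6 times for Cd109 and 10.1 times for Cd14, against 5.33 for Sphk1, 5.03 for B3gnt5, 4.74 for Clcf1, 3.17 for Tm4sf1 and 2.95 for S100a10. When the 12 groups were ordered by their median, the ranges of neighbouring groups overlapped for every gene with 1 exception, Cd109 in 5xCHI at 24 h (1.72) over 2xCHI at 24 h (0.907).

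**Figure D1:**
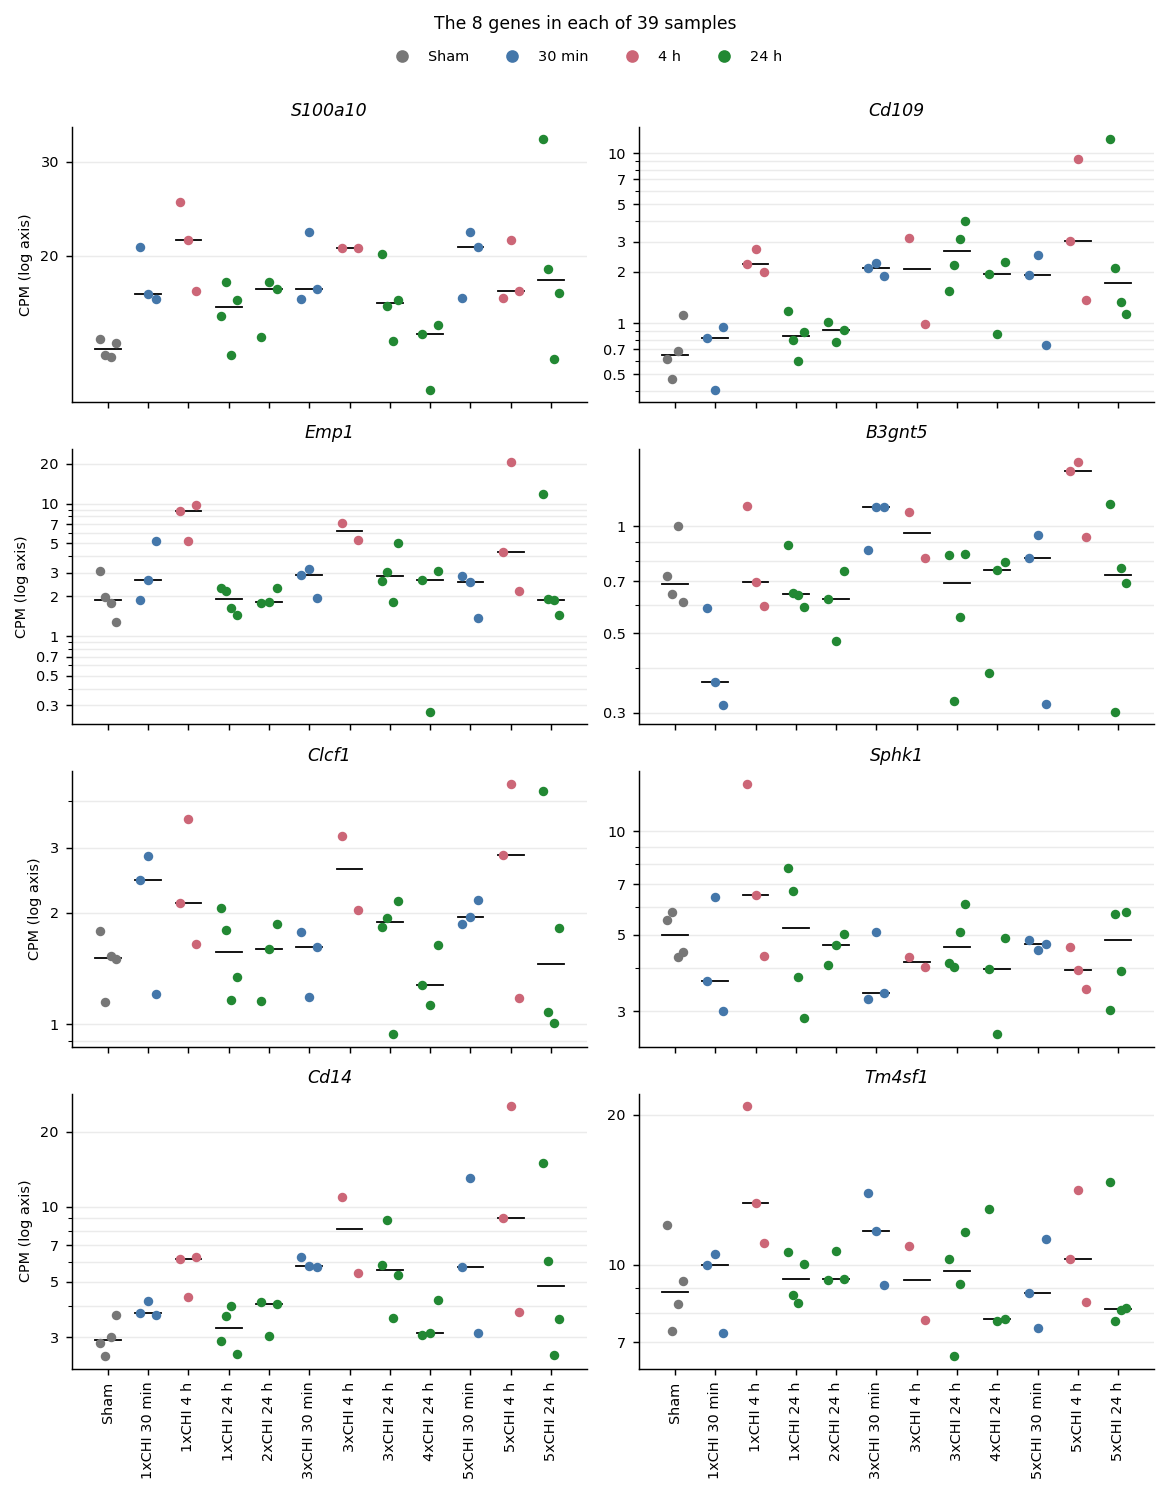
CPM of the 8 A2-type genes (log axis, 1 panel a gene) in the 12 groups, with 1 point a sample, a line at the group median and colours for Sham and the time points. Emp1 is highest at 4 h after 1xCHI (median 8.85 CPM), and samples 10 and 11 are the highest points of Emp1, Cd109 and Cd14 after 5xCHI.

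Across 24 comparisons with edgeR's quasi-likelihood test (Benjamini-Hochberg adjustment over 15224 features), 1 call was made for a member, the rise of Cd109 from 1xCHI to 5xCHI, where 1.1% of all features passed. No adjusted call was made for a member in the other 23 comparisons, where few features passed at all: 0.145% between 30 min and 24 h, 0.00657% between 4 h and 24 h and between 30 min and 4 h, 0.131% for any difference by time, 0.0131% for any difference among the 12 groups, and 0% in the remaining 18. DESeq2 called more members and in most comparisons more features. It called 2 members between 5xCHI and 1xCHI (3.39% of all features), 3 among the 12 groups (5.66%), and 1 each for the trend at 24 h (0.00657%), any number at 24 h (0.131%), any time (0.315%) and 5xCHI against Sham (0.0657%). The unadjusted p under 0.05 is therefore given as a description beside its share over all features. Of the 7 genes tested, 5 were higher at that level in 1xCHI at 4 h than in Sham, where the share of all features in either direction was 10.5%, and 5 were higher in 5xCHI at 4 h than in 4xCHI at 24 h, with a share of 5.33%. The median log2 difference of the 7 was 0.72 and 1.08 in these comparisons, and that of all features 0.02 and 0.01. Without sample 15 the first count was 3 (S100a10, Cd109 and Emp1), beside 6.34% of all features. Samples 10 and 11 are in neither group but enter the spread shared by all groups, and without them the first count was 7. The second count rests on sample 10. Without it 0 of the 7 passed at the unadjusted level by edgeR, beside 2.54% of all features, with a median of 0.38, and Cd109 went from 1.42 to 0.38, Emp1 from 2.17 to 0.69, Clcf1 from 1.08 to 0.59 and Cd14 from 1.87 to 0.89. At 30 min after 1xCHI the count was 1, beside 19.7% of all features, and at 24 h it was 0, beside 6.02%. After 3xCHI, compared with 2xCHI at 24 h, the counts were 0 at 30 min (1.88% of all features), 1 at 4 h (2%) and 1 at 24 h (4.57%). Without samples 10 and 11 these were 1, 3 and 1. After 5xCHI, compared with 4xCHI at 24 h, they were 2 at 30 min (6.36%) and 2 at 24 h (6.44%). Without samples 10 and 11 the counts after 5xCHI were 2 at 30 min, 1 at 4 h and 0 at 24 h. For the counts without both samples in this paragraph, the unadjusted share of all features was not computed.

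Over the 3 injury numbers together, 3 of 7 genes were higher at 4 h than at 24 h (3.44% of all features), 2 were lower at 30 min than at 4 h (4.51%) and 0 differed between 30 min and 24 h (10.5%). Without samples 10 and 11 these counts were 5, 2 and 1. Any difference by time was seen for 2 (6.23%) and a time course that differed by injury number for 0 (2.63%). In the fit without samples 10 and 11 these were 5 and 1. Over the time points together, 3 genes differed between 3xCHI and 1xCHI (9.47%) and 3 between 5xCHI and 1xCHI (16.4%), in each case 2 higher and 1 lower. Without samples 10 and 11 the second count was 1 higher (Cd109) and 2 lower (Emp1 and Tm4sf1), beside 19% of all features. At 24 h, 3 had a trend over 0 to 5 injuries (5.78%), of which Cd109 alone passed without samples 10 and 11 (S100a10 went from 0.07 to 0.02 and Cd14 from 0.19 to 0.09 per injury). Any difference by number at 24 h was seen for 2 (4.58%), and for 1 without samples 10 and 11. Over all times, 4 differed among the 12 groups (7.02%). Against Sham, 1 gene was higher in 1xCHI (17.2%), 3 in 3xCHI (3.86%) and 4 in 5xCHI (11.6%, and 3 without samples 10 and 11, as Emp1 went from 1.32 to 0.18), while 0 differed in 2xCHI (4.45%) and 0 in 4xCHI (1.7%). Without samples 10 and 11 the counts in 1xCHI, 2xCHI, 3xCHI and 4xCHI were 2, 0, 3 and 1. Apart from the 19% for 5xCHI against 1xCHI, the unadjusted share of all features was not computed for fits without both samples. The comparisons with Sham share the 4 Sham samples, and those with 1xCHI share its 10. Samples are labelled as separate samples and the p-values measure the spread between them.

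**Figure D2:**
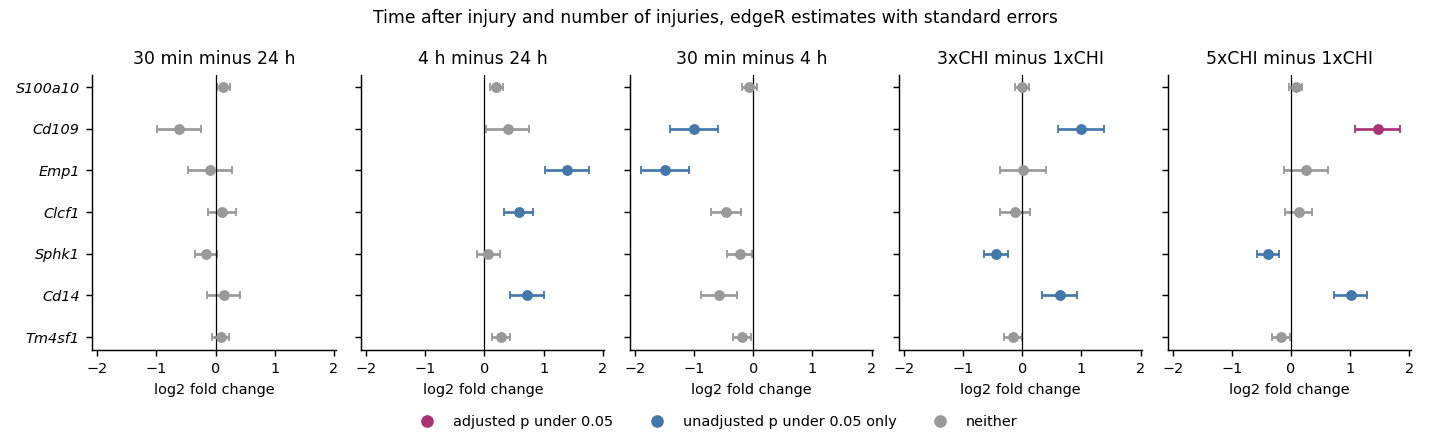
Log2 fold change ± SE from the edgeR fit for the 7 genes tested, in 5 comparisons, with purple for an adjusted p under 0.05, blue for an unadjusted p under 0.05 only and grey for neither. The purple point is Cd109 in 5xCHI against 1xCHI (1.47), and Emp1 has the largest difference at 4 h against 24 h (1.39).

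Samples 10 (5xCHI, 4 h) and 11 (5xCHI, 24 h) stood apart. They had the highest levels of Cd109 (9.19 and 12.0 CPM) and Cd14 (25.3 and 15.0 CPM), and their summed CPM of 13 pan-reactive astrocyte genes was 2280 and 3747, against a median of 312 over all samples. Their summed microglial markers were 824 and 1048, against a median of 376, and their neuronal markers 5794 and 5364, the latter the lowest of all, against 7572. Astrocyte markers were 5602 and 5666 (median 4440) and oligodendrocyte markers 7753 and 8741 (median 5422), and every listed marker of astrocytes, neurons, microglia and oligodendrocytes was detected. Sample 15 (1xCHI, 4 h) had the highest sum of meningeal fibroblast markers, 599 against a median of 141. Of the 6 blood neutrophil and monocyte markers none passed the filter, and their sum was 0.596 to 4.43 CPM. Values without these samples are given beside several results, and the part of these cell type sums in any result was not tested. Sample numbers 1 to 18 and 19 to 40 split the libraries in earlier results of these data. The labels do not name this as a batch, and differences within each range are given beside the main results.

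Cd109, a surface protein anchored by a lipid tail that acts as a co-receptor holding back TGF-beta signalling, rose from 1xCHI to 5xCHI, a call that was lost without samples 10 and 11. Its mean was 0.719 ± 0.276 CPM (SD, n = 4) in Sham, 1.26 ± 0.777 with 1xCHI (n = 10), 0.898 ± 0.116 with 2xCHI (n = 3), 2.36 ± 0.912 with 3xCHI (n = 9), 1.69 ± 0.742 with 4xCHI (n = 3) and 3.54 ± 3.85 with 5xCHI (n = 10), or 1.77 ± 0.763 without samples 10 and 11 (n = 8), below the 3xCHI mean. The Sham samples read 0.614, 0.467, 0.683 and 1.11 CPM, and those at 24 h read 1.18, 0.799, 0.601 and 0.891 after 1xCHI and 1.01, 0.778 and 0.907 after 2xCHI. All of these lay at or below 1.18 CPM. After 3xCHI at 24 h they read 1.55, 2.21, 3.12 and 3.97 CPM, after 4xCHI 1.94, 0.858 and 2.28, and after 5xCHI 12.0, 2.11, 1.34 and 1.13. The 4 samples at 24 h after 3xCHI lay above every Sham sample and every 24 h sample after 1xCHI or 2xCHI, while the ranges of 4xCHI and 5xCHI at 24 h overlapped that of 1xCHI. At 30 min the samples read 0.815, 0.407 and 0.946 CPM after 1xCHI, 2.11, 2.27 and 1.89 after 3xCHI and 1.92, 2.51 and 0.740 after 5xCHI. At 4 h they read 2.22, 2.73 and 1.99 after 1xCHI, 3.15 and 0.991 after 3xCHI and 3.02, 9.19 and 1.36 after 5xCHI. A single injury thus had its high Cd109 samples at 4 h, while after 3 injuries high samples were present at each time. The edgeR interaction test of time with injury number did not pass for Cd109 (unadjusted p = 0.261).

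From 1xCHI to 5xCHI, Cd109 rose by a log2 fold change of 1.47 (SE 0.38, 2.76-fold, edgeR adjusted p = 0.0473), with 8 of 10 samples above the 1xCHI median of their time point. The exact permutation test on log2 CPM within time points gave a difference of 1.04 (two-sided, p = 0.0156). The call did not hold without samples 10 and 11, where the log2 fold change was 0.66 and the edgeR adjusted p 0.187. Among samples 1 to 18, which include both, the log2 difference was 1.72 (6 against 6), and among samples 19 to 40 it was -0.07 (4 against 4). In 39 edgeR fits that each left out 1 sample, the log2 fold change was 1.00 to 1.61 and the call held in 12. Leaving out sample 10 gave an adjusted p of 0.159, sample 8 of 0.117 and sample 11 of 0.0747.

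From 1xCHI to 3xCHI the log2 difference in Cd109 was 0.99 (SE 0.39, unadjusted p = 0.0171, edgeR adjusted p = 0.447), and it was 0.66 and 1.44 within the ranges of sample numbers. This comparison holds neither sample 10 nor 11. Against Sham, the difference was 1.74 after 3xCHI (SE 0.61, 3.33-fold, edgeR adjusted p = 0.911, exact permutation p = 0.0028) and 2.30 after 5xCHI (SE 0.60, 4.92-fold, edgeR adjusted p = 0.36, exact permutation p = 0.022). The latter was 1.31 without samples 10 and 11, and 2.58 (6 against 1) and 0.61 (4 against 3) within the ranges. The trend over 0 to 5 injuries at 24 h was 0.49 log2 units per injury (SE 0.11), and its edgeR p of 5.99e-05 was the smallest of all 15224 features, with an adjusted p of 0.76. Without sample 11 the slope was 0.29. Between 4xCHI and 5xCHI at 24 h the log2 difference of 1.27 turned to -0.13 when sample 11 was left out.

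**Figure D3:**
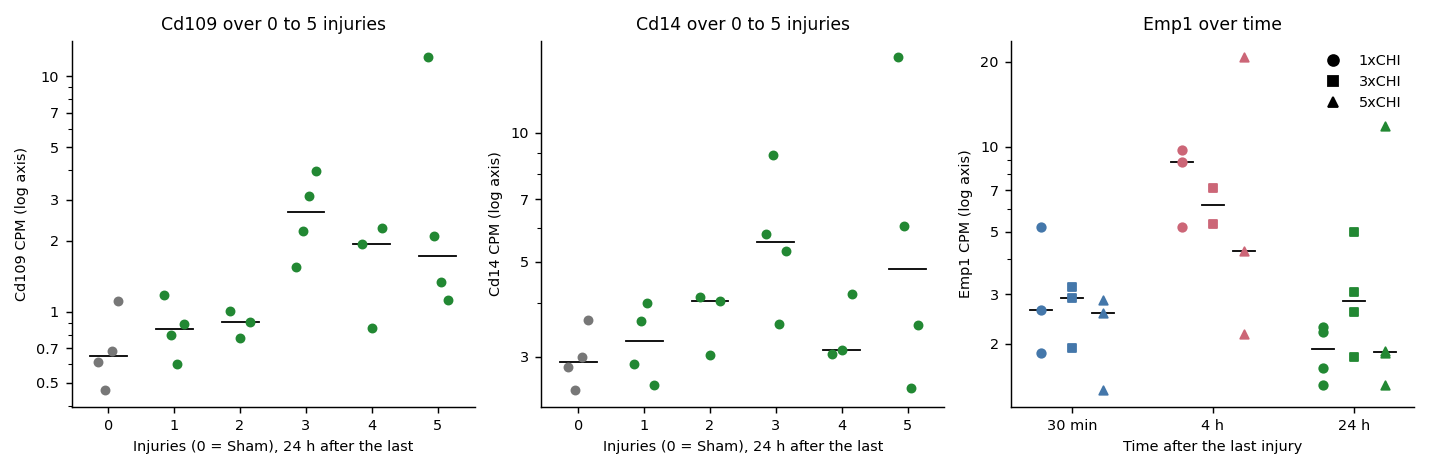
CPM of Cd109 and Cd14 at 24 h against the number of injuries (0 to 5), and of Emp1 against time after 1xCHI, 3xCHI and 5xCHI, on log axes, with 1 point a sample and a bar at each group median. The Cd109 samples at 24 h after 3xCHI (1.55 to 3.97 CPM) lie above those after 2xCHI (0.778 to 1.01 CPM), and the Emp1 medians peak at 4 h.

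Cd14, the surface co-receptor that hands bacterial lipopolysaccharide to Tlr4 and that microglia and other myeloid cells carry, read higher after 3xCHI and 5xCHI than in Sham, without passing the adjusted test. Mean Cd14 was 3.01 ± 0.484 CPM (SD, n = 4) in Sham, 4.15 ± 1.21 with 1xCHI (n = 10), 6.41 ± 2.18 with 3xCHI (n = 9) and 8.71 ± 7.23 with 5xCHI (n = 10), against 3.74 ± 0.619 with 2xCHI (n = 3) and 3.46 ± 0.657 with 4xCHI (n = 3). Without samples 10 and 11 the 5xCHI mean was 5.85 ± 3.57 (n = 8), below that of 3xCHI. The Sham samples read 2.85, 2.51, 3.00 and 3.66 CPM, the 2xCHI samples 4.13, 3.02 and 4.05 and the 4xCHI samples 3.04, 3.11 and 4.21. These 10 samples lay at or below 4.21 CPM. After 1xCHI the samples read 3.76, 4.19 and 3.68 CPM at 30 min, 6.16, 4.34 and 6.27 at 4 h and 2.89, 3.65, 4.01 and 2.57 at 24 h. After 3xCHI they read 6.28, 5.77 and 5.71 at 30 min, 10.9 and 5.42 at 4 h and 5.81, 8.88, 3.59 and 5.30 at 24 h. After 5xCHI they read 5.71, 13.0 and 3.12 at 30 min, 9.01, 25.3 and 3.78 at 4 h and 15.0, 6.07, 2.53 and 3.56 at 24 h. The group medians were highest at 4 h for each of 1xCHI (6.16), 3xCHI (8.17) and 5xCHI (9.01), the highest of all 12 groups, and the 5xCHI samples spread widest.

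The log2 difference in Cd14 between 5xCHI and 1xCHI was 1.01 (SE 0.28, 2.01-fold, edgeR adjusted p = 0.0648), and DESeq2 gave an adjusted p of 0.0174. The exact permutation p was 0.0644, and the differences within the ranges of sample numbers were 1.37 and -0.37. Without samples 10 and 11 the log2 difference was 0.45 (edgeR adjusted p = 0.266). After 3xCHI, Cd14 was 1.08 log2 units above Sham (SE 0.41, 2.12-fold, edgeR adjusted p = 0.911). These groups hold neither of the 2 samples, and the differences within the ranges were 1.22 (5 against 1) and 0.86 (4 against 3). The exact permutation p of 0.0014 was the smallest this design can give. That test used log2 CPM with TMM over all features with a count, and on that scale the groups did not overlap. In CPM the lowest 3xCHI sample (3.59) and the highest Sham sample (3.66) overlapped, as they did with TMM over the features tested. After 5xCHI, Cd14 was 1.52 log2 units above Sham (SE 0.41, 2.87-fold, edgeR adjusted p = 0.36, exact permutation p = 0.0569). Within the ranges that difference was 1.91 (6 against 1) and 0.08 (4 against 3), and without samples 10 and 11 it was 0.95. Between 5xCHI at 4 h and 4xCHI at 24 h the log2 difference was 1.87 (SE 0.52, edgeR adjusted p = 0.894), 0.89 without sample 10, and 0.14 within samples 19 to 40 (1 against 3). Between 4 h and 24 h over the injury numbers it was 0.72 (SE 0.28, edgeR adjusted p = 0.993, exact permutation p = 0.0621), and 0.58 and 0.62 within the ranges. Over the samples left out 1 at a time it ran from 0.40 to 0.96. Summed microglial markers were 338 to 373 CPM in Sham, 280 to 388 after 1xCHI, 376 to 486 after 3xCHI and 334 to 1048 after 5xCHI, where the samples other than 10 and 11 reached 452.

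Emp1, a small membrane protein with 4 spans that takes part in cell contacts and growth, had its higher samples at 4 h, without passing the adjusted test. Between 5xCHI and 1xCHI its log2 difference was 0.25, and -0.65 without samples 10 and 11. The samples at 4 h read 8.85, 5.19 and 9.70 CPM after 1xCHI, 7.16 and 5.30 after 3xCHI and 4.28, 20.7 and 2.17 after 5xCHI. At 24 h they read 2.30, 2.20, 1.64 and 1.44 after 1xCHI, 2.60, 3.07, 1.79 and 5.00 after 3xCHI and 11.8, 1.89, 1.86 and 1.43 after 5xCHI. After 1xCHI and 3xCHI the samples at 4 h lay above all those at 24 h, and after 5xCHI the times overlapped. At 30 min they read 1.86, 2.65 and 5.21 after 1xCHI, 2.91, 3.20 and 1.94 after 3xCHI and 2.85, 2.57 and 1.37 after 5xCHI. Before injury the Sham samples read 3.07, 1.97, 1.79 and 1.28, the 2xCHI samples at 24 h 1.78, 1.81 and 2.29 and the 4xCHI samples at 24 h 2.66, 0.268 and 3.07. The value of 0.268 CPM rests on 5 counts. The 3 groups at 4 h had the highest medians of the 12.

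The log2 difference in Emp1 between 4 h and 24 h was 1.39 (SE 0.37, 2.63-fold), at an unadjusted edgeR p of 0.000698 and an adjusted p of 0.993. All 8 samples at 4 h lay above the 24 h median, the exact permutation test within injury numbers gave p = 0.00473, and the differences within the ranges of sample numbers were 1.27 and 1.49. Without sample 11 the log2 difference was 1.81 with an edgeR adjusted p of 0.0145, without sample 10 it was 0.90, and without both 1.32 with an adjusted p of 0.133. Between 30 min and 4 h it was -1.49 (SE 0.41, edgeR adjusted p = 0.372, exact permutation p = 0.0025). Against the group before each injury, Emp1 at 4 h was higher by 1.98 after 1xCHI (SE 0.63, 3.93-fold, edgeR adjusted p = 0.355), by 1.66 after 3xCHI (SE 0.75, 3.15-fold) and by 2.17 after 5xCHI (SE 0.70, 4.49-fold, edgeR adjusted p = 0.894). After 1xCHI the groups did not overlap, and the exact permutation p of 0.0286 was the smallest possible with 3 against 4 samples. After 3xCHI the exact permutation p of 0.1 was the smallest possible with 2 against 3, and after 5xCHI it was 0.3. The last difference was 0.69 without sample 10. The samples of 3xCHI at 4 h have numbers up to 18 and those of 2xCHI at 24 h numbers from 19, so that injury and this split cannot be told apart there. A time course of Emp1 that depends on injury number was not detectable in these samples (edgeR interaction test across all features, unadjusted p = 0.44).

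Clcf1, a cytokine of the gp130 family that signals through Stat3, read higher at 4 h than at 24 h on the average, without passing the adjusted test. It read 2.12, 3.59 and 1.64 CPM at 4 h after 1xCHI, 3.21 and 2.04 after 3xCHI and 2.86, 4.46 and 1.18 after 5xCHI. At 24 h it read 2.06, 1.80, 1.16 and 1.34 after 1xCHI, 1.83, 1.94, 0.940 and 2.16 after 3xCHI and 4.27, 1.08, 1.00 and 1.82 after 5xCHI. The times overlapped at each injury number. At 30 min it read 2.45, 2.85 and 1.21 CPM after 1xCHI, with a median (2.45) above that at 4 h (2.12), and 1.77, 1.19 and 1.62 after 3xCHI and 1.86, 1.95 and 2.17 after 5xCHI. The log2 difference was 0.58 (SE 0.24, 1.49-fold, edgeR adjusted p = 0.993, exact permutation p = 0.0593), and within the ranges of sample numbers 0.58 and 0.08. Sham samples lay between 1.15 and 1.79 CPM, and injury group means between 1.35 ± 0.262 with 4xCHI (SD, n = 3) and 2.26 ± 1.24 with 5xCHI (n = 10). Between 5xCHI at 4 h and 4xCHI at 24 h the difference was 1.08 (SE 0.44, 2.11-fold, unadjusted p = 0.0201, edgeR adjusted p = 0.929, exact permutation p = 0.3). It was 0.59 without sample 10, and -0.17 within samples 19 to 40 (1 against 3).

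S100a10, the light chain of the annexin A2 complex at the plasma membrane, read higher than Sham in several injured groups, without passing the adjusted test, and not in 4xCHI. Sham samples read 14.0, 13.0, 12.9 and 13.7 CPM. After 1xCHI they read 20.8, 16.9 and 16.6 at 30 min, 25.3, 21.4 and 17.2 at 4 h and 15.4, 17.8, 13.0 and 16.5 at 24 h. All samples at 30 min and 4 h lay above all Sham samples, and those at 24 h overlapped them. Group means were 13.4 ± 0.526 CPM (SD, n = 4) in Sham, 18.1 ± 3.48 with 1xCHI (n = 10), 16.4 ± 2.05 with 2xCHI (n = 3), 18.2 ± 2.78 with 3xCHI (n = 9), 13.4 ± 1.94 with 4xCHI (n = 3) and 19.6 ± 5.46 with 5xCHI (n = 10). The 4xCHI samples at 14.2, 11.2 and 14.8 CPM overlapped Sham.

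The log2 difference in S100a10 to Sham was 0.49 at 30 min (SE 0.19, edgeR adjusted p = 0.191) and 0.67 at 4 h after 1xCHI (SE 0.19, 1.59-fold, edgeR adjusted p = 0.328), each with an exact permutation p of 0.0286, the smallest possible. Without sample 36 the edgeR adjusted p at 4 h was 0.036. Over the time points, the difference to Sham was 0.45 after 1xCHI (SE 0.16, edgeR adjusted p = 0.231, exact permutation p = 0.00899), 0.43 after 3xCHI (SE 0.16, edgeR adjusted p = 0.911, exact permutation p = 0.0028) and 0.54 after 5xCHI (SE 0.16, edgeR adjusted p = 0.36, exact permutation p = 0.018). These 3 values were close to each other, and the difference between 5xCHI and 1xCHI was 0.08. Within the ranges of sample numbers they were 0.51 and 0.26 after 1xCHI, 0.54 and 0.25 after 3xCHI and 0.59 and 0.33 after 5xCHI. The first value of each pair rests on 1 Sham sample, the second on 3. Against 4xCHI at 24 h, S100a10 after 5xCHI was higher by 0.58 at 30 min, 0.45 at 4 h and 0.61 at 24 h (edgeR adjusted p = 0.78, 0.929 and 0.635). The last was 0.30 without sample 11, whose 33.0 CPM was the highest level of the gene.

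Tm4sf1, a tetraspanin-like surface protein abundant in endothelial cells, had its highest group at 4 h after 1xCHI, passing neither the adjusted nor the exact test against Sham. At 4 h after 1xCHI it read 20.8, 13.3 and 11.0 CPM, against 12.0, 7.36, 8.36 and 9.27 in Sham, so that the groups overlapped. The log2 difference was 0.71 (SE 0.24, 1.64-fold, unadjusted p = 0.00638, edgeR adjusted p = 0.355, exact permutation p = 0.0857), and 0.41 without sample 15, the highest. In the remaining 10 groups the samples ran from 6.56 to 14.7 CPM, and injury group means from 9.25 ± 2.00 (SD, n = 4) in Sham to 11.1 ± 3.79 (n = 10) after 1xCHI. Endothelial markers summed to 125 to 283 CPM over all samples.

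Sphk1, the kinase that makes sphingosine-1-phosphate, had the same sample on top. At 4 h after 1xCHI it read 13.7, 6.53 and 4.33 CPM, and in Sham 5.53, 5.81, 4.31 and 4.44. The log2 difference of 0.70 (SE 0.32, unadjusted p = 0.0334, edgeR adjusted p = 0.442) was 0.12 without sample 15, and the exact permutation p was 0.257. Against 1xCHI, the log2 difference in Sphk1 was -0.44 in 3xCHI (SE 0.20, edgeR adjusted p = 0.501, exact permutation p = 0.244) and -0.39 in 5xCHI (SE 0.19, edgeR adjusted p = 0.303, exact permutation p = 0.265), so neither passed. Without sample 15 these were -0.24 and -0.19, and the sign differed between the ranges of sample numbers 1 to 18 and 19 to 40, with -0.76 and 0.37 for 3xCHI and -0.69 and 0.27 for 5xCHI. Mean Sphk1 was 5.02 ± 0.760 CPM in Sham (SD, n = 4), 5.88 ± 3.26 with 1xCHI (n = 10), 4.39 ± 0.910 with 3xCHI (n = 9) and 4.46 ± 0.899 with 5xCHI (n = 10). At 4 h after 1xCHI the sum of meningeal fibroblast markers ran from 116 to 599 CPM, highest in sample 15.

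B3gnt5, a glycosyltransferase that starts lacto-series glycosphingolipids, had 6 to 33 counts per sample (median 14), and 6 samples had fewer than 10. It was left to exact permutation tests of log2 CPM. At 4 h it read 1.14, 0.696 and 0.597 CPM after 1xCHI, 1.09 and 0.816 after 3xCHI and 1.43, 1.52 and 0.930 after 5xCHI. The log2 difference between 4 h and 24 h was 0.55 (exact permutation p = 0.0259, 7 of 8 samples above the 24 h median), and 0.55 and 0.13 within the ranges of sample numbers. At 30 min after 1xCHI the samples read 0.589, 0.366 and 0.315 CPM, all below the Sham samples at 0.726, 0.646, 0.998 and 0.611. The log2 difference was -0.73 (exact permutation p = 0.0286, the smallest possible), on counts this low. Injury group means of B3gnt5 ran from 0.616 ± 0.136 CPM with 2xCHI (SD, n = 3) to 0.886 ± 0.407 with 5xCHI (n = 10). The exact p-values are not adjusted for the number of tests.

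Among the 7 genes tested, all 21 pairs were correlated over the 39 samples on log2 CPM, and 14 passed at a permutation p adjusted over the 21 (Benjamini-Hochberg), all with a positive r. How many pairs of other features pass was not computed, so the count cannot be called particular to these genes. Pearson's r ran from -0.107 to 0.778 (median 0.501), and 11 pairs passed by Spearman's rho. With residuals from the group means 14 passed as well, with r of -0.101 to 0.739. The closest pair was Cd109 with Cd14 (r = 0.778, rho = 0.684, adjusted permutation p = 5.25e-05), at r = 0.648 without the 2 samples farthest from the median. Emp1 with Cd14 followed it closely (r = 0.682, rho = 0.635, 0.609 without 2 samples), and S100a10 with Clcf1 had r = 0.646 (rho = 0.607, 0.549 without 2 samples). After leaving out 2 samples from each pair, 11 passed, and the 3 that did not, Cd109 with S100a10, Clcf1 and Tm4sf1, rest on those samples. None of the 6 pairs with Sphk1 passed, and Sphk1 with Tm4sf1 went from r = 0.335 to -0.038 without the 2 farthest samples, but to 0.465 without samples 10 and 11.

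**Figure D4:**
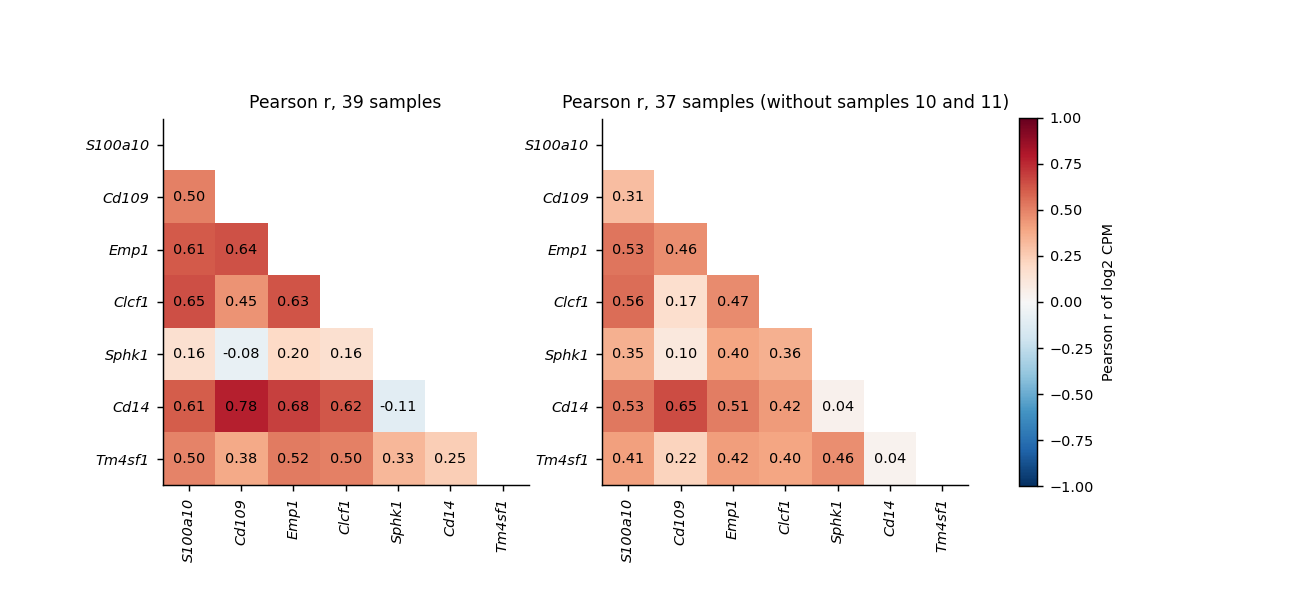
Pearson's r of log2 CPM between the 7 genes tested, over 39 samples and over the 37 without samples 10 and 11. Cd109 and Cd14 have the highest r (0.778), and the row of Sphk1 is the palest.

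The features most like each gene over the 39 samples are given as a description, with no test, since all genes share the libraries. Cd109 was most like Cd44 (r = 0.853), Gfap (0.848) and Vim (0.833), all pan-reactive astrocyte genes, and Cd14 most like Cd44 (0.865), Gfap (0.859) and Flnc (0.845). Without samples 10 and 11, Cd44 had r = 0.747 with Cd109 and 0.765 with Cd14. Emp1 was most like Anxa2 (0.831), the oncostatin M receptor Osmr (0.820) and Flnc (0.807), S100a10 most like Gng5 (0.804), Fcer1g (0.797) and Cyba (0.790), the last 2 being myeloid genes, and Clcf1 most like Col16a1 (0.742), Sbno2 (0.724) and Mvp (0.722). Sphk1 went with the meningeal genes Aldh1a2 (0.871), Fmod (0.863) and Slc6a13 (0.854), which kept an r of 0.864, 0.853 and 0.851 without samples 10 and 11. Sample 15, the highest in both Sphk1 and the meningeal sum, is in these values, and r without it was not computed. Tm4sf1 was most like Laptm4a (0.722), Il10rb (0.715) and Sncg (0.690).

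Partners of the 8 genes were described by lists. From 1xCHI to 5xCHI, where 1.1% of all features passed the adjusted test, 2 of 9 tested pan-reactive genes rose, Serpina3n (log2 fold change 2.85, SE 0.57, edgeR adjusted p = 0.0209) and the sphingosine-1-phosphate receptor S1pr3 (0.72, SE 0.19, edgeR adjusted p = 0.0478). S1pr3 was also the 1 gene of 11 that rose in the sphingosine-1-phosphate pathway of Sphk1. At an unadjusted p under 0.05, which 16.4% of all features passed, 6 of 9 pan-reactive genes were higher, among them Gfap (1.56) and Cd44 (1.36), and their median log2 difference was 0.72. Of 12 TGF-beta pathway genes around Cd109, 0 passed the adjusted edgeR test and 4 were higher at the unadjusted level, Tgfb1 (0.63), Tgfb2 (0.34), Tgfbr2 (0.34) and Tgfbr1 (0.23). Of 10 genes of the lipopolysaccharide receptor pathway around Cd14, 0 passed and 3 were higher unadjusted, with Tlr2 at 1.47 (edgeR adjusted p = 0.0608) and Lbp at 0.92. Of 8 genes of gp130 signalling around Clcf1, 0 passed and 2 were higher unadjusted, Stat3 (0.33) and Lifr (0.18). Of 9 annexin and S100 genes, 0 passed and 2 were higher unadjusted, S100a4 (1.99) and S100a6 (0.74). Of 11 A1 genes 0 passed, and Ggta1 (0.63) alone was higher unadjusted. Among markers of other cells, 2 of 10 microglial genes rose, Csf1r (0.55, edgeR adjusted p = 0.0294) and Cx3cr1 (0.41, edgeR adjusted p = 0.0369), and 9 of 10 were higher unadjusted. Of 10 meningeal markers 4 were lower unadjusted, with Aldh1a2 at -0.90. Without samples 10 and 11, none of these adjusted calls held. Serpina3n was then at 1.13 (edgeR adjusted p = 0.0728), S1pr3 at 0.35 (0.169), Csf1r at 0.34 (0.0799) and Cx3cr1 at 0.22 (0.0799), with 2 of 9 pan-reactive and 4 of 10 microglial genes higher unadjusted beside 19% of all features in either direction. Gfap was then at 0.26 and Cd44 at 0.31. The pan-reactive gene Aspg was lower unadjusted, at -0.78 (edgeR adjusted p = 0.0744). So were 2 of 11 A1 genes, Gbp2 (-0.52) and Srgn (-0.26), 3 of 10 meningeal markers and 4 of 6 oligodendrocyte markers. Among the partner lists, 1 of 12 TGF-beta genes was still higher unadjusted (Tgfb2, 0.25), 1 of 10 lipopolysaccharide receptor genes (Lbp, 1.03, with Tlr2 at 0.53), both gp130 genes (Lifr 0.20, Stat3 0.20), and 0 of 9 annexin and S100 genes (S100a4 0.27, S100a6 0.06), with Ggta1 at 0.03. Of 3 tested choroid plexus markers, Ttr rose from 1xCHI to 5xCHI (4.13, edgeR adjusted p = 0.0386) and was at 4.44 without samples 10 and 11 (edgeR adjusted p = 0.0531). The sum of these markers reached 2472 CPM after 5xCHI, in sample 31, and at most 48.0 after 1xCHI.

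At 4 h after 1xCHI, where 10.5% of all features passed the unadjusted test against Sham and 0 the adjusted one, Anxa2, the partner of S100a10, had a log2 difference of 1.43 (unadjusted p = 0.000323, edgeR adjusted p = 0.23), with S100a11 at 1.05 and Ahnak at 0.60. The Emp1 relative Emp3 was at 1.61 (unadjusted p = 0.00705). In the pathway of Cd14, 2 of 10 genes were higher at the unadjusted level, Lbp (1.48) and Myd88 (0.46). Of the TGF-beta pathway genes, 3 of 12 were lower, Eng (-0.44), Tgfbr1 (-0.41) and Smad7 (-0.26). The pan-reactive genes Aspg (1.71), Cd44 (1.46) and Osmr (1.11) were higher, as were 4 of 11 A1 genes and the meningeal genes Aldh1a2 (1.62), Fmod (1.06) and Col1a1 (0.98). Sample 15 had a meningeal sum of 599 CPM, against 116 to 164 in the others of its group. Without sample 15, Aldh1a2 was at 0.78, Fmod at -0.02 and Col1a1 at 0.18. At the unadjusted level 1 of 11 A1 genes and 0 of 10 meningeal markers were then higher. Of the partner genes named here, those past that level were Anxa2 (1.13), Cd44 (1.58) and Tgfbr1 (-0.44), beside 6.34% of all features. Between 4 h and 24 h over the injury numbers, 0 of 8 gp130, 0 of 10 lipopolysaccharide receptor, 0 of 11 sphingosine-1-phosphate and 0 of 12 TGF-beta pathway genes differed at the unadjusted level (3.44% of all features) or the adjusted one by edgeR, while Osmr (0.71), Anxa2 (0.44) and Ahnak (0.37) were higher at 4 h unadjusted. Of 4 further A2 genes only Ptgs2, the inducible cyclooxygenase, could be tested. It rose at 30 min against 24 h by 1.70 log2 units (SE 0.27, edgeR adjusted p = 0.00243).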

How the data were processed

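The authors deposited estimated counts per gene for 40 samples, made by a sequencing company and not normalized. The submitters' processing notes name mm10, and the aligner and its version are not given in the sources used here. Of the values, 4.46% were not whole, and counts were rounded to whole numbers here. Columns matched no sample in 0 cases, and 55450 of 55539 identifiers matched GENCODE M21. Groups were taken from the labels. A feature was dropped when over 4 of 39 samples held under 10 counts of it. The remaining 15224 were tested with edgeR 4.0.16 (TMM, quasi-likelihood test, 1 fit over 12 groups) in R 4.3.3, with Benjamini-Hochberg adjustment and calls at 0.05. Each injury number with its time points combined was compared with Sham in 1 further fit, over 6 injury groups. DESeq2 1.42.0, other scalings, filters, covariates and left-out samples were alternatives. In the fit over 12 groups, contrasts over several groups weight these equally. The fit over injury groups pools the samples of all times, so its spread includes differences between time points. Exact permutation tests, two-sided, used log2 CPM with a prior count of 1 and TMM over all features with a count, and correlations 100000 permutations. The smallest p that these can give is 1e-05. The fits were tested on simulated data. Of 46 replicate pairs, all differed beyond counting error (lowest chi-square per feature 6.25).

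The 8 genes are named in every case, list genes at an unadjusted p under 0.05 (up to 4 a list and comparison), and for each tested gene the 3 most correlated features, without other members and uncharacterised symbols. Members, lists and rules were chosen with earlier results of these data known. The list of A2 genes comes from general knowledge. The full genotype of the line is not reported here.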

Additional observations from a re-analysis of the deposited data

Results flagged for a closer look

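In groups of 4 to 10 samples, the distance of the highest or lowest sample to its neighbour was compared with Dixon's critical value, and 6 of 56 groups were marked, where chance marks about 1 in 20. Sample 11 (5xCHI, 24 h) was marked in 4 of them, at 33.0 CPM of S100a10 among all 5xCHI samples (next 22.2), and within 5xCHI at 24 h at 12.0 CPM of Cd109 (next 2.11), 11.8 CPM of Emp1 (next 1.89) and 14.7 CPM of Tm4sf1 (next 8.20). Sample 15 (1xCHI, 4 h) was marked among all 1xCHI samples, at 13.7 CPM of Sphk1 (next 7.83) and 20.8 CPM of Tm4sf1 (next 13.3).

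Sample 30 (3xCHI, 4 h) was in no comparison. It read 16.0 CPM of S100a10, above the highest Sham sample (14.0) and below the other samples of its group (20.6 and 20.7). It read 1.71 CPM of Cd109, above the highest Sham sample (1.11) and between the other samples of its group (0.991 and 3.15). The other genes in sample 30 were not above Sham. Emp1 read 2.10 CPM (highest Sham 3.07, the other samples of its group 5.30 and 7.16), Cd14 read 2.48 (lowest Sham 2.51, the others 5.42 and 10.9) and Clcf1 read 1.10 (lowest Sham 1.15, the others 2.04 and 3.21). B3gnt5 read 0.714 CPM, Sphk1 3.67 and Tm4sf1 9.38.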

How the results depend on the processing

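No paired analysis was possible because each sample number occurs once in the series. Of the counts of genes called, 1132 values under alternatives were within 1.5 times the main count and 45 were not. The main count was 0 in all but 1 of the 24 comparisons, so most of the 1132 values are a count of 0 that stayed 0. The 1 call between 5xCHI and 1xCHI (Cd109) went to 0 with the sample number as a covariate, 0 when only the groups compared were fitted, 0 without samples 10 and 11 (chosen after seeing the data) and 2 with DESeq2 (Cd109 and Cd14), and ranged from 0 to 2 when 1 sample was left out. DESeq2 also called 1 gene where edgeR called 0 for the trend at 24 h, any number at 24 h and 5xCHI against Sham (Cd109 each) and any time (Emp1), and 3 among the 12 groups (Cd109, Cd14, Emp1), where edgeR with no filter called 1. When 1 sample was left out, the counts ranged from 0 to 1 for any time and for 4 h against 24 h (Emp1, without sample 11) and for 1xCHI at 4 h against Sham (S100a10, without sample 36). Cd109 between 5xCHI and 4xCHI at 24 h turned from 1.27 to -0.13 without sample 11 (-0.13 to 1.58 over the samples left out 1 at a time), and to -0.13 without samples 10 and 11. Of the values of single genes, 2353 kept direction and side of the threshold, 51 lost the threshold, 17 gained it and 2 reversed, and the causes were not tested. Leaving out 1 sample of 3xCHI at 4 h assumes that the other varies like the remaining groups. The stricter filter drops Emp1. Depth limits B3gnt5, with 6 to 33 counts a sample.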
